A study of Mus musculus with 77 samples.

Results

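The synaptic vesicle release machinery was followed in striatal spiny projection neurons after dopamine depletion and chronic levodopa. Its members were chosen by symbol: every probe set with a single annotated symbol of a numbered synaptotagmin (Syt), syntaxin (Stx) or VAMP, of Snap23, Snap25, Snap29, Snap47 or Snap91, of a complexin (Cplx), synapsin (Syn), SV2 protein or RIM (Rims), of Unc13, or of any name beginning with Rab3. This gave 181 probe sets for 80 genes, of 34958 single-symbol probe sets for 18194 genes on the array. Each gene was read from its probe set with the highest mean, and 72 of the 80 lay above the limit for dim genes, among 13271 genes tested in all. The 8 dim members were Cplx3, Cplx4, Rab32, Rab37, Rab38, Rab39, Stx11 and Stx19. The pattern for Rab3 also took in 12 genes from Rab30 to Rab39, of which 8 were tested. They are Rab GTPases other than the Rab3 proteins, and they are counted among the members throughout.

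Calcium entering a nerve terminal is sensed by synaptotagmins on the vesicle, which act on the SNARE complex of a vesicle protein (VAMP) and target proteins (syntaxin and SNAP-25) to fuse vesicle and plasma membrane. Complexins hold and release that complex, Munc13 (Unc13) and RIM proteins prime vesicles at the active zone, Rab3 proteins bring vesicles there, and synapsins keep a reserve of them. Spiny projection neurons release GABA and peptides in the globus pallidus and substantia nigra, and several members also serve dense-core vesicles, endosomes and dendrites.

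RNA came from TRAP, or translating ribosome affinity purification, in which ribosomes labelled with the fluorescent fusion EGFP-L10a are captured with their mRNA, so that the RNA of the labelled cells is enriched. Each of the 77 mice gave 1 Affymetrix array. The tag was driven by bacterial artificial chromosome transgenes, Drd1::EGFP-L10a in direct pathway neurons (dSPN) or Drd2::EGFP-L10a in indirect pathway neurons (iSPN), so each cell type is represented by its own hemizygous line. All mice were males on the C57BL/6J background, 9 to 14 weeks old, and the tissue was the dorsal striatum on the operated side. Lesioned mice received 6-OHDA, a toxin of dopamine neurons, at 3.2 µg/µl in the right medial forebrain bundle, and mock mice received the ascorbate and saline vehicle there. Lesioned mice were chosen by behaviour 2 weeks later, and treatment began 3 weeks after surgery with 1 injection a day. The high dose of levodopa was 3 mg/kg for days 1 to 3, then 6 mg/kg from day 4 to day 9. The low dose was 1 mg/kg and then 2 mg/kg over the same days, and both were given with benserazide, a peripheral decarboxylase inhibitor, at 12 mg/kg. The mock group and the lesioned saline group received chronic saline. The dSPN groups held 10 mock, 11 lesioned saline, 12 low-dose and 11 high-dose arrays, and the iSPN groups held 10, 7, 8 and 8. Low and high dose were both compared with the same lesioned saline arrays, which also served as the lesion group against mock, so these changes share arrays.

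The array medians lay between 4.31 and 4.42 on the log2 scale, and each array's median correlation with the others of its group lay between 0.964 and 0.987. In mock arrays, 10 of 13 dSPN markers were higher and 2 lower in the Drd1 line, with a median log2 difference of 2.22, and 8 of 8 tested iSPN markers were lower, with a median of -3.63. Ordered by title number, the animal numbers rise in 7 separate series, called runs. The labels do not say what a run is. Each run lies within a line, and in dSPN no run held both low-dose and lesioned saline arrays. In iSPN all 8 high-dose arrays lay in run 6 and all 8 low-dose arrays in run 7, so no run held both doses. Of the 10 mock iSPN arrays 9 lay in run 5, which held 1 lesioned saline array, so lesion and run largely coincide there. All values are log2 expression, all changes are differences of log2 group means ± standard error (SE), and a gene was called at a limma adjusted p under 0.05 over all 13271 genes. In such pulled-down RNA, fewer tagged cells or less RNA per cell cannot be told apart from each other.

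Levodopa in dSPN moved the most members. At the high dose 31 of 72 were called, 16 higher and 15 lower, where 45.6% of all genes were called, 20.1% higher and 25.5% lower. The members' share of 43.1% was thus close to the background, and so was the low dose with 25 called members (13 higher, 12 lower, 34.7%), against 34.1% of all genes, 15.1% higher and 19.0% lower. In iSPN the high dose gave 7 called members, 2 higher and 5 lower, against 9.86% of all genes (6.27% higher, 3.59% lower). The low dose there gave 8, 2 higher and 6 lower, or 11.1% of members against 4.18% of all genes (2.41% higher, 1.77% lower). The lesion alone gave 3 called members in dSPN, all lower, against 2.48% of all genes (1.84% lower). In iSPN it gave 10, of which 8 were higher and 2 lower, or 13.9% of members against 6.20% of all genes (3.19% higher, 3.01% lower). The median change over the 72 members was near 0 in each of these comparisons, between -0.07 at the high dose in iSPN and 0.025 after the lesion in iSPN, while the medians over all genes lay between -0.04 and 0.01.

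**Figure D1:**
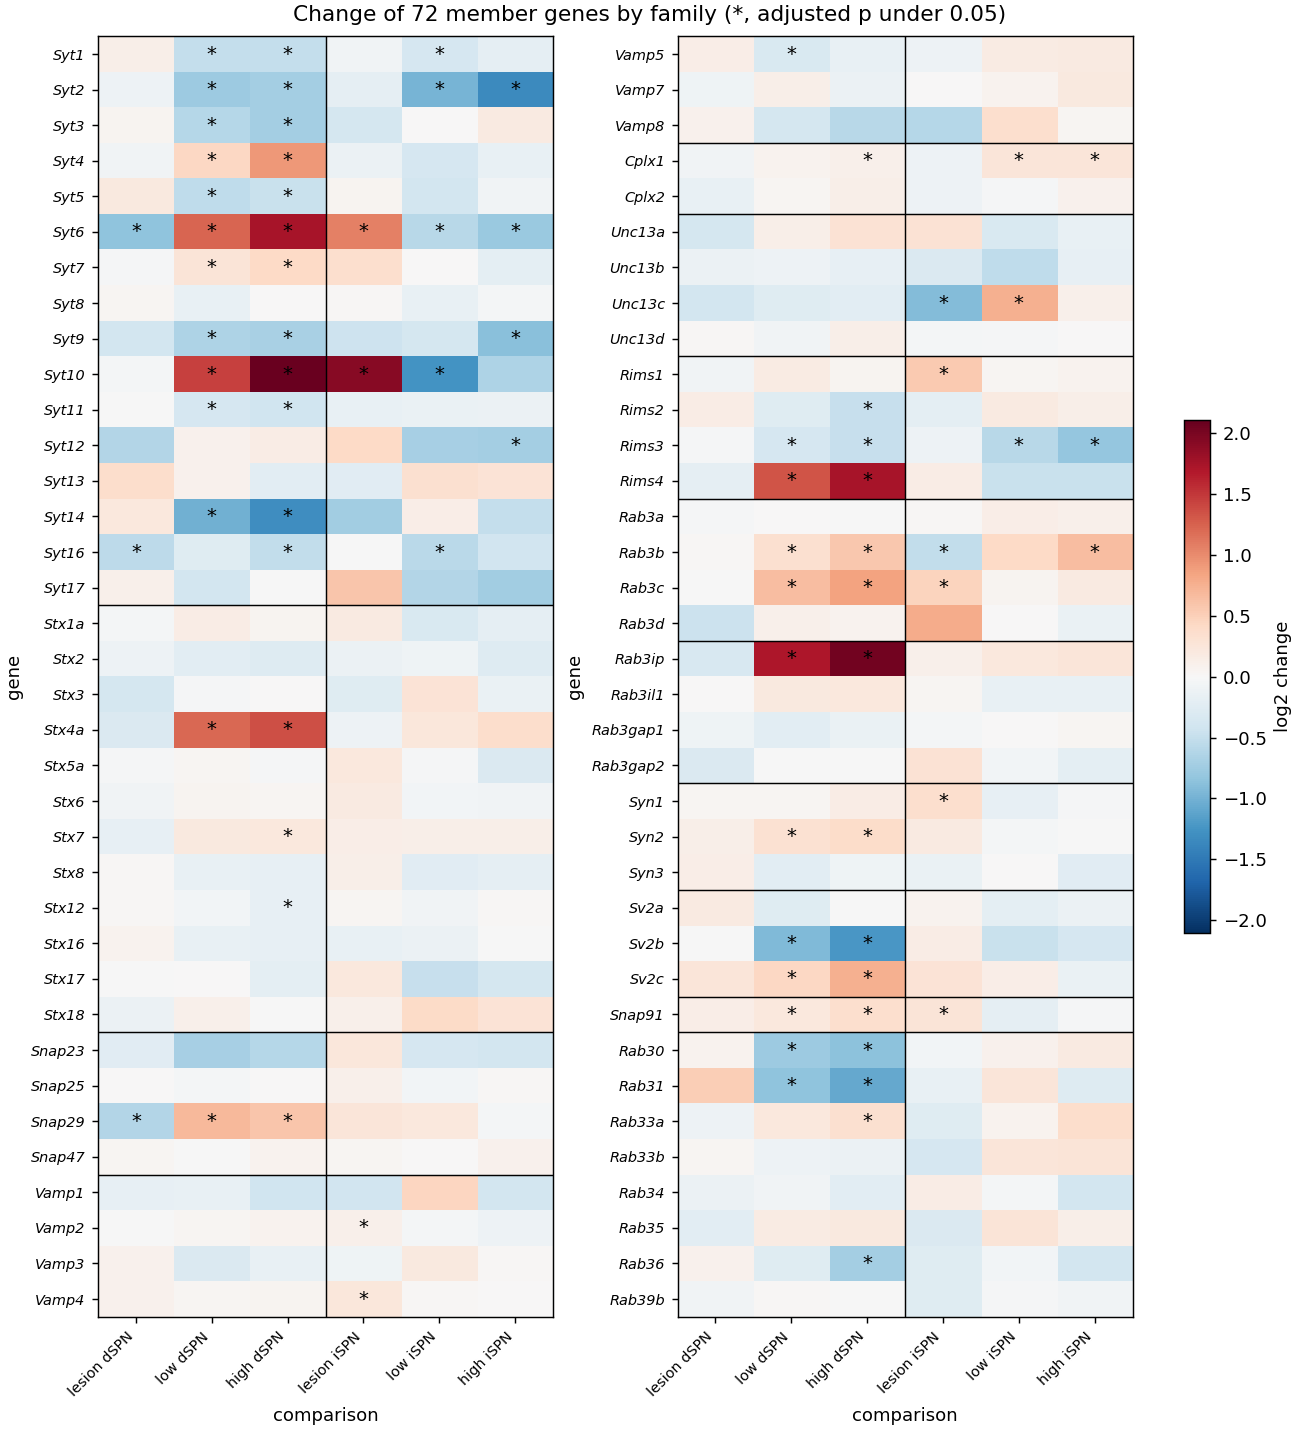
Heat map of the log2 change of the 72 tested members (rows, by family) in 6 comparisons (columns): lesion against mock, and low and high dose against lesioned saline, in each line. Red is higher, blue lower, and an asterisk marks an adjusted p under 0.05. Among the darkest cells are Syt10, Syt6, Rab3ip, Rims4 and Stx4a at both doses in dSPN, Syt10 and Syt6 after the lesion in iSPN, and Syt2 at the high dose in iSPN.

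Among the calcium sensors, Syt6 and Syt10 had some of the widest changes, and Syt6 moved in opposite directions in the 2 lines. In dSPN, Syt6 ran from 8.54 to 9.58 (median 9.21) in mock arrays, from 7.88 to 8.90 (median 8.38) after the lesion, from 9.16 to 9.78 (median 9.58) at the low dose and from 9.60 to 10.45 (median 10.04) at the high dose. The lesioned arrays were the lowest, and both dose groups lay above every one of them. Syt6 changed by -0.84 ± 0.14 with the lesion (adjusted p = 3.14e-05), 1.23 ± 0.13 at the low dose (adjusted p = 7.42e-12) and 1.73 ± 0.14 at the high dose (adjusted p = 4.15e-18). In iSPN it ran the other way, from 7.79 to 9.19 (median 8.50) in mock, from 9.28 to 9.85 (median 9.57) after the lesion, from 7.86 to 9.44 (median 9.16) at the low dose and from 8.37 to 9.37 (median 8.85) at the high dose. Here the lesioned arrays lay above every mock array, and both dose groups overlapped them. The changes were 1.05 ± 0.16 with the lesion (adjusted p = 1.13e-06), -0.58 ± 0.17 at the low dose (adjusted p = 0.0266) and -0.77 ± 0.17 at the high dose (adjusted p = 0.0008). With run as a block, the fall at the low dose in iSPN was no longer called (adjusted p = 0.16), and within run 1 alone neither was the fall with the lesion in dSPN (adjusted p = 0.231, 4 mock and 5 lesioned arrays).

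Syt10, a calcium sensor known to be induced by strong neuronal activity, was not called after the lesion in dSPN, with a change of -0.04 ± 0.27 and a 95% interval of -0.58 to 0.50. Its levels there ran from 5.57 to 7.65 (median 7.13) in mock, from 6.09 to 8.09 (median 6.67) after the lesion, from 7.87 to 8.56 (median 8.43) at the low dose and from 8.57 to 9.40 (median 8.92) at the high dose. Every high-dose array exceeded every lesioned saline and every low-dose array. The changes were 1.44 ± 0.26 at the low dose (adjusted p = 6.01e-06) and 2.08 ± 0.27 at the high dose (adjusted p = 5.34e-10), a 4.21-fold difference and the widest of any member at that dose. In iSPN, Syt10 ran from 4.50 to 8.13 (median 6.00) in mock, from 6.72 to 8.67 (median 8.04) after the lesion, from 5.04 to 7.27 (median 6.83) at the low dose and from 6.43 to 7.70 (median 7.28) at the high dose. A single mock array at 8.13 reached into the lesioned range, and the other mock arrays lay below it. The lesion raised it by 1.91 ± 0.31 (adjusted p = 5.77e-06), the low dose changed it by -1.25 ± 0.32 (adjusted p = 0.012), and the high-dose change of -0.65 ± 0.32 was not called (adjusted p = 0.21).

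**Figure D2:**
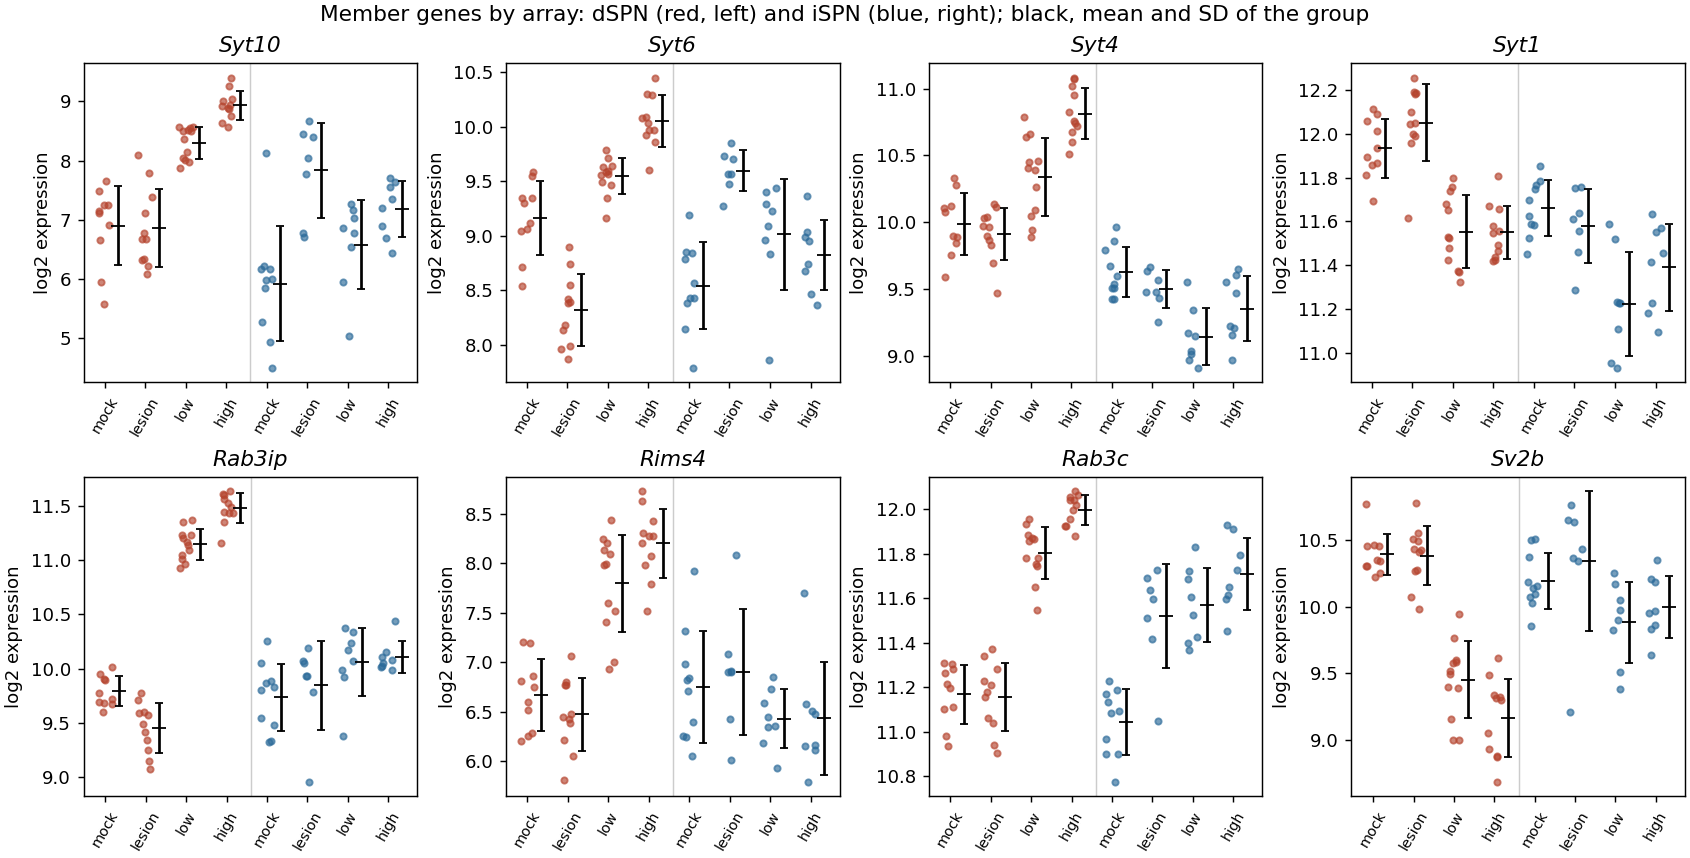
Log2 expression of 8 members on every array, by group (mock, lesion with saline, low dose, high dose), with dSPN in red on the left and iSPN in blue on the right of each panel. Black marks are the group mean and SD. Syt10 and Syt6 are high with levodopa in dSPN and high with the lesion in iSPN, Rab3ip, Rims4 and Rab3c are high with levodopa in dSPN, and Syt1 and Sv2b are low there.

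The synaptotagmins did not all move one way in dSPN under levodopa. Of 16 tested, 4 were higher and 8 lower at the high dose, where 20.1% of all genes were higher and 25.5% lower. At the low dose 4 were higher and 7 lower, against 15.1% and 19.0% of all genes. Syt4, a synaptotagmin of dense-core and postsynaptic vesicles that is induced by activity, ran from 9.47 to 10.13 (median 9.96) in lesioned saline dSPN, from 9.89 to 10.79 (median 10.40) at the low dose and from 10.51 to 11.08 (median 10.76) at the high dose. All high-dose arrays lay above all lesioned saline arrays, and the low-dose arrays overlapped them. It rose by 0.90 ± 0.095 at the high dose (adjusted p = 8.09e-13) and by 0.43 ± 0.093 at the low dose (adjusted p = 0.000167, 0.404 with run as a block). Syt7, a sensor of slow release, rose by 0.42 at the high dose (adjusted p = 0.000812).

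The sensors of fast release went the other way. Syt1, the main fast calcium sensor of forebrain neurons, ran from 11.62 to 12.26 (median 12.05) in lesioned saline dSPN, from 11.33 to 11.80 (median 11.53) at the low dose and from 11.42 to 11.81 (median 11.55) at the high dose. The lowest lesioned array lay within the range of both dose groups, and the other lesioned arrays lay above all treated arrays. Not every probe set of Syt1 was called in dSPN, as given with the probe sets below. On its brightest probe set, Syt1 fell by 0.50 on the log2 scale at each dose (adjusted p = 3.87e-08 at the low and 2.68e-08 at the high dose). In iSPN it changed by -0.36 ± 0.089 at the low dose (adjusted p = 0.00931, 0.0581 with run as a block) and by -0.19 at the high dose, which was not called (adjusted p = 0.18).

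Syt2, the fast sensor that predominates in hindbrain and spinal cord, was lower with levodopa in both lines. It ran from 7.53 to 8.59 (median 8.16) in lesioned saline dSPN, from 6.53 to 7.58 (median 7.44) at the low dose and from 6.82 to 7.89 (median 7.40) at the high dose. In iSPN it ran from 7.26 to 8.12 (median 7.75), from 5.72 to 7.22 (median 6.97) and from 5.66 to 7.36 (median 6.24) in the same order. The low-dose iSPN arrays all lay below the lesioned ones, and 1 or more arrays overlapped in each of the other pairs. Syt2 changed by -0.76 ± 0.15 and -0.72 ± 0.15 in dSPN at the low and high dose (adjusted p = 3.31e-05 and 7.83e-05), and by -0.97 ± 0.19 and -1.33 ± 0.19 in iSPN (adjusted p = 0.000392 and 3.05e-07). The high-dose change in iSPN was the widest of any member in that line under levodopa, a 2.51-fold difference, and within run 6, with 2 lesioned and 8 high-dose arrays, it was -1.59 (adjusted p = 0.14).

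Syt9, a further fast sensor that the striatum expresses, fell by 0.68 on the log2 scale in dSPN (adjusted p = 0.0145) and by 0.88 in iSPN (adjusted p = 0.0364) at the high dose. The call in dSPN was lost within run 2 (adjusted p = 0.0798) and with glial markers as covariates (adjusted p = 0.143), and the call in iSPN with run as a block (adjusted p = 0.415). Syt14 and Syt16, which do not bind calcium, changed by -1.31 ± 0.31 (adjusted p = 0.000272) and -0.51 ± 0.12 (adjusted p = 0.000253) at the high dose in dSPN. Syt16 was also 1 of the 3 members lower after the lesion in dSPN, at -0.55 ± 0.12 (adjusted p = 0.00322, 0.149 within run 1). Syt3, a high-affinity sensor, fell by 0.72 at the high dose in dSPN (adjusted p = 0.00121), and Syt5 and Syt11 fell by 0.47 and 0.42 (adjusted p = 0.000605 and 3.18e-07). Syt12, which does not bind calcium, changed by -0.71 ± 0.22 at the high dose in iSPN (adjusted p = 0.0297, 0.0788 with run as a block).

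Promoters of the members were read because Syt6, Syt10 and Syt4 moved together with levodopa in dSPN, and because letters bound by activity-regulated factors can be searched. RefSeq windows (GRCm38.p6) from 250 bases before to 50 after a start were found for 61 of the 80 genes. A gene could have several starts, and these genes had 82 windows. The letters searched on both strands were TGACGTCA (CRE, bound by CREB), TGACTCA or TGAGTCA (AP-1, bound by Fos and Jun proteins) and GCGTGGGCG (bound by Egr proteins). No motif holds another. CRE letters lay in 1 member gene (1.64%, against 2.03% of 27025 genes), AP-1 letters in 5 (8.2%, against 5.95%), and Egr letters in 1 (1.64%, against 0.707%). Of 13 members higher at the high dose in dSPN with a window, 1 held any of the letters (Syt6), and of 11 lower members, 1 did (Syt2). Syt10 and Syt4 were not among those with letters, and a member without a window could not be read. The stretches of Syt6 (chr3:103576124-103576153, + strand, letters at bases 10 to 16 from the start), Syt2 (chr1:134709060-134709179, + strand, bases -183 to -177) and Syn1 (chrX:20921014-20921133, - strand, bases -159 to -152) are shown as examples, with the letters found in capitals. Those of Syt6 and Syt2 belong to starts inside the gene (chr3:103575245-103645567 and chr1:134646534-134753149), not to its outermost start. Other members with letters, among them Rab39b and Unc13a, are not shown.
Syt6: tcggtctctctcTGACTCActcggactccg
Syt2: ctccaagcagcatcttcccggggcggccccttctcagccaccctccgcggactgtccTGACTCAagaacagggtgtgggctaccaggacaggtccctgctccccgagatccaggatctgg
Syn1: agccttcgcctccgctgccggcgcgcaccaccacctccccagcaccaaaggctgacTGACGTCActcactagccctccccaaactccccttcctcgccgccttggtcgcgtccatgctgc
A match describes letters only, and members without one may be bound elsewhere.

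Of the SNARE genes, 12 syntaxins were tested. At the high dose in dSPN 2 were higher and 1 lower, where 45.6% of all genes were called (20.1% higher, 25.5% lower). At the low dose 1 was higher, where 34.1% of all genes were called (15.1% higher). The exception in size was Stx4a, the plasma membrane syntaxin 4, which serves exocytosis outside the active zone and in dendrites. It ran from 7.51 to 8.41 (median 7.83) in lesioned saline dSPN, from 8.77 to 9.42 (median 9.07) at the low dose and from 9.00 to 9.50 (median 9.21) at the high dose, with no overlap of either dose with the lesioned arrays. The changes were 1.21 ± 0.12 and 1.35 ± 0.12 (adjusted p = 2.33e-13 and 2.85e-15). Stx7 and Stx12, endosomal syntaxins, changed by 0.21 and -0.18 at the high dose (adjusted p = 0.041 and 0.0474). Among the 4 SNAP-25 relatives, Snap29, which works on endosomes and autophagosomes, fell by 0.62 with the lesion in dSPN (adjusted p = 0.0452, 0.34 with run as a block), and rose by 0.68 and 0.58 at the low and high dose (adjusted p = 0.00122 and 0.0052). Its group ranges overlapped in each case, and the low-dose call was lost with run as a block (adjusted p = 0.0888).

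Vamp5, a VAMP of non-neuronal tissue, was the 1 VAMP called at a dose, -0.32 at the low dose in dSPN (adjusted p = 0.0186). The lesion in iSPN raised 2 of 7 VAMPs, where 3.19% of all genes were higher, and the changes were small. Vamp4, a SNARE of endosomes and the trans-Golgi network, rose by 0.25 ± 0.072 (adjusted p = 0.0237). Vamp2, the main synaptic VAMP, rose by 0.11 ± 0.036 (adjusted p = 0.0438). Vamp2 ran from 12.97 to 13.08 (median 13.03) in mock and from 13.10 to 13.24 (median 13.11) in lesioned iSPN arrays. The groups did not overlap, with a 1.08-fold difference. With run as a block neither was called (adjusted p = 0.145 and 0.482).

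Complexin 1 (Cplx1), the SNARE clamp and activator, was the only member raised at both doses in iSPN. It ran from 11.83 to 12.12 (median 12.05) in lesioned saline, from 12.19 to 12.40 (median 12.26) at the low dose and from 12.21 to 12.33 (median 12.30) at the high dose, with no overlap of either dose group with saline. It rose by 0.25 ± 0.046 (adjusted p = 0.000275) and 0.26 ± 0.046 (adjusted p = 4.62e-05, 0.0599 with run as a block). In dSPN it rose by 0.10 ± 0.038 at the high dose (adjusted p = 0.0271), which was not called within run 2 (adjusted p = 0.271) or with glial markers as covariates (adjusted p = 0.551).

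Of the 4 Munc13 genes, only Unc13c, the form best known from the cerebellum, was called in any of the lesion or dose comparisons. In iSPN it ran from 9.17 to 10.44 (median 9.81) in mock, from 8.55 to 9.26 (median 8.95) after the lesion and from 8.30 to 10.84 (median 9.30) at the low dose. The lesioned arrays were low, and 1 mock array reached into their range. It changed by -0.92 ± 0.21 with the lesion (adjusted p = 0.00289, 0.304 with run as a block) and by 0.74 ± 0.22 at the low dose (adjusted p = 0.0412, 0.113 with the block).

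The RIM family behaved differently member by member. Rims4, a short RIM that lacks the Rab3-binding part, ran from 5.81 to 7.07 (median 6.45) in lesioned saline dSPN, from 6.94 to 8.44 (median 7.99) at the low dose and from 7.52 to 8.73 (median 8.27) at the high dose. Every high-dose array lay above every lesioned array, and the lowest low-dose arrays overlapped them. It rose by 1.32 ± 0.19 and 1.73 ± 0.19 (adjusted p = 3.39e-08 and 7.84e-12), and in iSPN the high-dose change was -0.47 ± 0.24 and not called (adjusted p = 0.219). Rims2, a full-length active zone scaffold, and Rims3, another short form, fell by 0.48 and 0.49 at the high dose in dSPN (adjusted p = 0.00146 and 0.00409). Rims3 also fell in iSPN, by 0.81 at the high dose (adjusted p = 0.000944, 0.217 with run as a block) and 0.58 at the low dose (adjusted p = 0.0419). Rims1, the main active zone RIM, was called only for the lesion in iSPN among these 6 comparisons, where it ran from 7.57 to 8.38 (median 7.90) in mock and from 8.16 to 8.79 (median 8.57) in lesioned arrays and changed by 0.54 ± 0.13 (adjusted p = 0.00441, 0.205 with run as a block).

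Rab3ip, the guanine exchange factor Rabin8 that was found as a partner of Rab3 and activates Rab8, had the lowest adjusted p of any member at both doses in dSPN. In dSPN it ran from 9.60 to 10.02 (median 9.75) in mock, from 9.08 to 9.77 (median 9.49) after the lesion, from 10.93 to 11.37 (median 11.15) at the low dose and from 11.16 to 11.63 (median 11.49) at the high dose. The lowest treated array lay more than 1 log2 unit above the highest lesioned saline array. Rab3ip rose by 1.69 ± 0.099 and 2.02 ± 0.10 (adjusted p = 2.15e-24 and 1.87e-28), the latter 4.06-fold. In iSPN the high-dose change was 0.26 ± 0.12 and not called (adjusted p = 0.177). The other 3 regulators, Rab3gap1, Rab3gap2 and Rab3il1, were not called in any lesion or dose comparison.

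Of the 4 Rab3 GTPases, 2 rose with levodopa in dSPN, where 20.1% of all genes were higher at the high dose and 15.1% at the low dose. Rab3c ran from 10.91 to 11.37 (median 11.18) in lesioned saline, from 11.55 to 11.96 (median 11.82) at the low dose and from 11.88 to 12.08 (median 12.02) at the high dose, with both doses above all lesioned arrays. It rose by 0.65 ± 0.065 and 0.84 ± 0.066 (adjusted p = 2.38e-13 and 3.1e-18). In iSPN, Rab3c rose with the lesion, where it ran from 10.78 to 11.23 (median 11.09) in mock and from 11.05 to 11.73 (median 11.60) in lesioned arrays, a change of 0.47 ± 0.076 (adjusted p = 6.17e-06). There 1 lesioned array at 11.05 lay within the mock range and the others lay above every mock array. Rab3b rose in dSPN by 0.56 ± 0.12 at the high dose (adjusted p = 6.78e-05, 0.183 with glial markers as covariates). In iSPN it fell by 0.51 with the lesion (adjusted p = 0.013, 0.216 with run as a block) and rose by 0.66 at the high dose (adjusted p = 0.00111, 0.44 with the block). Rab3a, the most abundant Rab3 of brain synapses, changed by -0.01 at the high dose in dSPN, with a 95% interval of -0.16 to 0.14.

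Among vesicle proteins, the 3 SV2 genes of the vesicle transporter-like glycoproteins parted. Sv2b ran from 9.99 to 10.78 (median 10.43) in lesioned saline dSPN, from 9.00 to 9.95 (median 9.51) at the low dose and from 8.69 to 9.61 (median 9.30) at the high dose. Neither dose group overlapped the lesioned arrays. Sv2b fell by 0.93 and 1.22 on the log2 scale (adjusted p = 1.17e-09 and 8.65e-14), while Sv2c, the form most restricted to the basal ganglia, rose by 0.43 ± 0.13 and 0.74 ± 0.14 (adjusted p = 0.00804 and 4.74e-06). The Sv2c rises were not called with glial markers as covariates (adjusted p = 0.761 and 0.0624), nor the low-dose rise with run as a block (adjusted p = 0.438). Sv2a changed by -0.01 at the high dose, with a 95% interval of -0.25 to 0.23.

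Syn1, the most abundant synapsin, rose with the lesion in iSPN, where it ran from 9.39 to 10.35 (median 9.80) in mock and from 9.86 to 10.62 (median 10.14) in lesioned arrays, a change of 0.36 ± 0.093 (adjusted p = 0.00951, 0.507 with run as a block). Snap91 (AP180), which assembles clathrin for vesicle retrieval, rose there by 0.27 ± 0.089 (adjusted p = 0.049, 0.144 with run as a block). In dSPN at the high dose it was Syn2 that rose, by 0.38 ± 0.069 (adjusted p = 3.41e-06), and Snap91 by 0.35 ± 0.077 (adjusted p = 0.000103), both without overlap with lesioned saline. In all, 12 members did not overlap between high dose and lesioned saline in dSPN, where 11.4% of all genes did not, and 7 did not at the low dose, against 4.80%. Without overlap were also 2 members for the lesion in iSPN (0.671% of all genes), 1 at the high dose in iSPN (1.57%), 2 at the low dose in iSPN (0.377%) and 0 for the lesion in dSPN (0.181%).

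The Rab30 to Rab39 genes matched the Rab3 pattern by spelling, and they made up 4 of the 31 members called at the high dose in dSPN, 1 higher and 3 lower. Of these Rab30 and Rab31, small GTPases of the Golgi and trans-Golgi network, fell in dSPN by 0.86 and 1.08 at the high dose (adjusted p = 5.61e-12 and 9.83e-06) and by 0.76 and 0.84 at the low dose (adjusted p = 3.25e-10 and 0.000543). The falls of Rab31 were not called with glial markers as covariates (adjusted p = 0.641 and 0.978), and those of Rab30 were (adjusted p = 2.27e-08 and 1.78e-07). Rab36 fell by 0.72 at the high dose in dSPN (adjusted p = 0.0107, 0.104 within run 2), and Rab33a rose by 0.34 (adjusted p = 0.0214). Syn2, Snap91, Syt5, Syt7, Syt11, Stx7, Stx12, Rims2, Rims3 and Rab33a at the high dose in dSPN, Vamp5 at the low dose there, Rab3c in the test of the lesion between lines, and members outside the core proteins given with a change that was not called, lie outside the rule for naming genes and were chosen after their values were seen.

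Core release proteins, with Syt4 and Syn1 among them, were also read as a list. Of these, 12 were read in every comparison (Syt1, Syt4, Snap25, Stx1a, Vamp2, Cplx1, Cplx2, Syn1, Sv2a, Rab3a, Rims1 and Unc13a). At the high dose in dSPN, Syt1, Syt4 and Cplx1 were called, where 45.6% of all genes were called (20.1% higher, 25.5% lower). For Snap25, the 95% interval of the change was -0.06 to 0.08 there, -0.06 to 0.09 with the lesion in dSPN, 0.02 to 0.19 with the lesion in iSPN and -0.07 to 0.11 at the high dose in iSPN. Vamp2 had 0.01 to 0.13 at the high dose in dSPN and -0.18 to -0.03 in iSPN. The interval of Stx1a was the widest of the 12 at the high dose in dSPN, -0.31 to 0.43. When each array was centred on its median, Snap25, Vamp2, Cplx2, Syn1 and Unc13a were also called higher at the high dose in dSPN, with changes of 0.09, 0.15, 0.22, 0.24 and 0.39, so whether these genes rose there turns on the scaling.

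**Figure D3:**
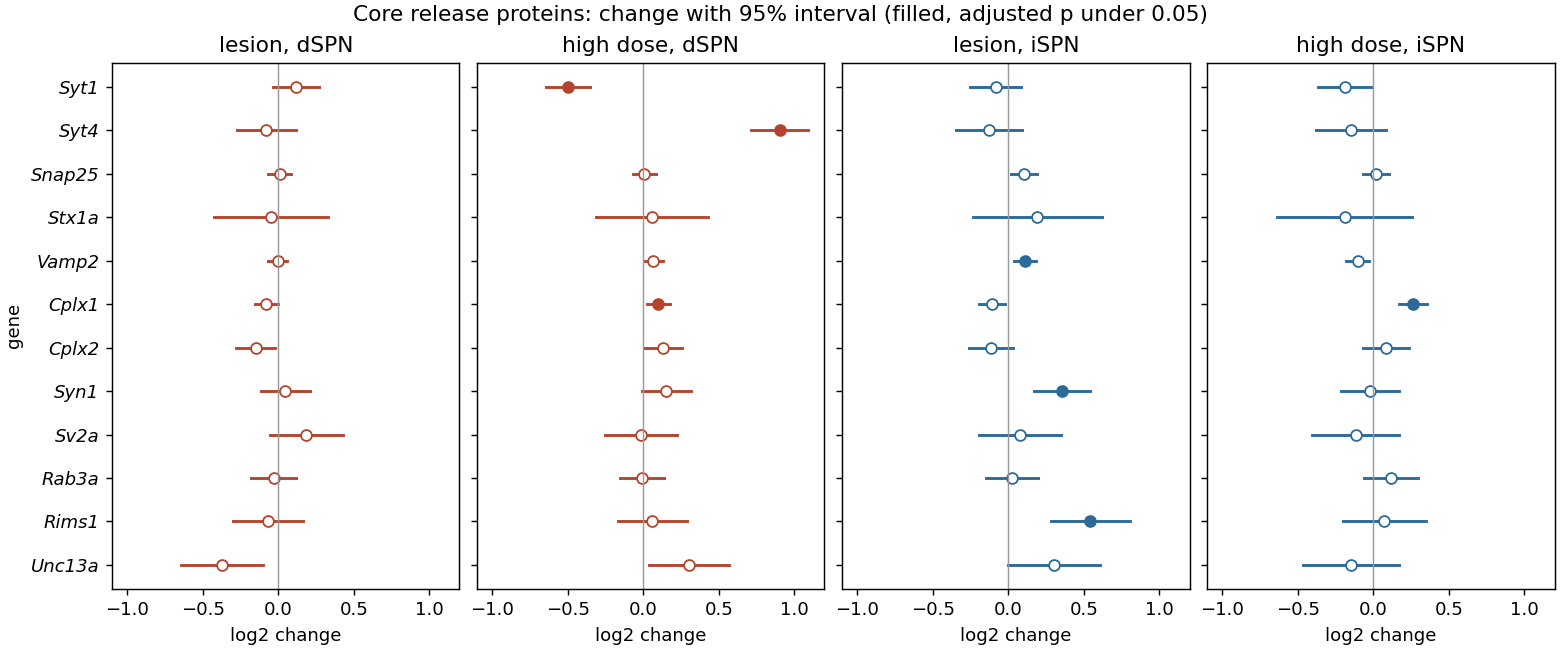
Log2 change (points) with 95% interval (lines) of 12 core release proteins in 4 comparisons, for dSPN (red) and iSPN (blue). Filled points have an adjusted p under 0.05. The points farthest from 0 are Syt4 and Syt1 at the high dose in dSPN and Rims1 with the lesion in iSPN.

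The difference between the lines was tested as the change in dSPN minus that in iSPN. For the lesion, 7 members differed, all with a lower change in dSPN, where 4.86% of all genes differed (3.21% lower). Syt10 differed by -1.95 ± 0.41 (adjusted p = 0.000746) and Syt6 by -1.89 ± 0.21 (adjusted p = 2.35e-10), and both were called with run as a block. Syt12, Snap29, Unc13a and Rims1 differed by -1.03, -0.87, -0.67 and -0.61 (adjusted p = 0.0169, 0.0457, 0.0368 and 0.0241), none of which was called with the block (adjusted p = 0.411, 0.863, 0.249 and 0.294). The remaining member was Rab3c, at -0.49 (adjusted p = 0.000697). With the block 2 of the 7 were called, Syt10 and Syt6, so Rab3c was not.

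For the high dose, 20 members differed between lines, 13 with a higher and 7 with a lower change in dSPN, against 25% of all genes (10.5% higher, 14.5% lower). The widest were Syt10 at 2.72 ± 0.42, Syt6 at 2.50 ± 0.22, Rims4 at 2.20 ± 0.31 and Rab3ip at 1.76 ± 0.16 (adjusted p = 3.08e-07, 1.13e-15, 2.5e-08 and 8.54e-15). Syt4 and Stx4a differed by 1.05 and 0.98. On the lower side stood Rab30 at -1.04 ± 0.15, Syt3 at -0.90 ± 0.30 and Sv2b at -0.88 ± 0.19 (adjusted p = 5.88e-08, 0.019 and 0.000238), and for Syt3 the call was lost with the block (adjusted p = 0.119). The fall of Syt2 was not shown to differ between lines (adjusted p = 0.0533, difference 0.61 ± 0.24). For the low dose, 14 members differed, 9 higher and 5 lower, against 14.8% of all genes (6.99% higher, 7.79% lower), with Syt10 at 2.69, Syt6 at 1.81, Rims4 at 1.79 and Rab3ip at 1.48 again the widest.

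**Figure D4:**
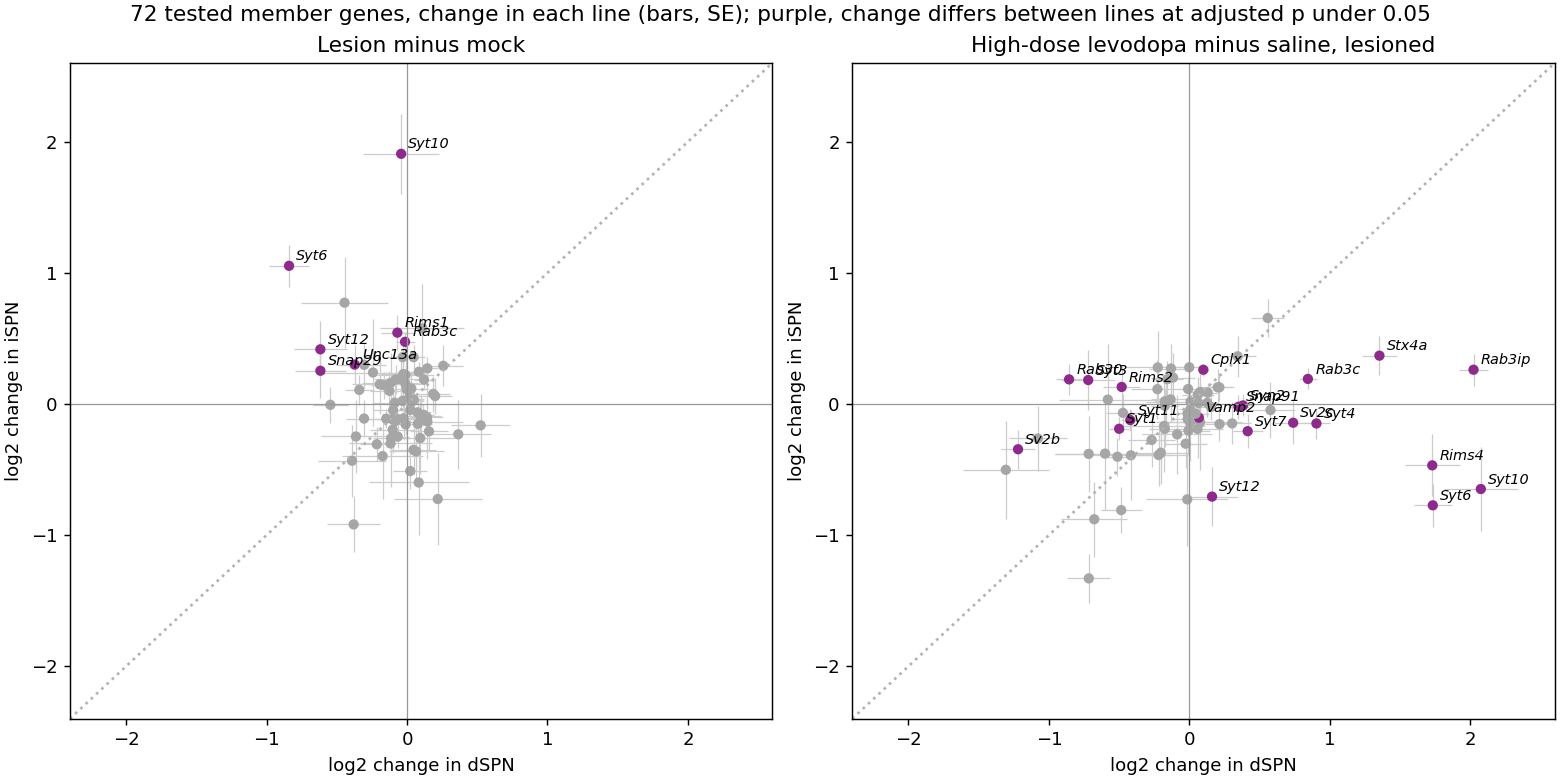
Log2 change of each of the 72 tested members in dSPN (horizontal) against iSPN (vertical), with SE bars, for the lesion (left) and the high dose (right). The dotted line marks equal change, and purple points are members whose change differed between lines at an adjusted p under 0.05, 7 for the lesion and 20 for the high dose. Syt6 sits at upper left for the lesion and at lower right for the high dose.

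The 2 doses were also set against each other. In dSPN 4 members were higher at the high dose and 0 lower, against 6.80% of all genes (3.14% higher, 3.66% lower). They were Syt6 at 0.51 ± 0.13, Syt4 at 0.48 ± 0.093, Rab3ip at 0.33 ± 0.099 and Rab3c at 0.20 ± 0.065 (adjusted p = 0.01, 0.000311, 0.0262 and 0.0499). With run as a block the Syt4 difference alone was called (adjusted p = 0.0096), and the others gave 0.137, 0.23 and 0.366. Without the adjustment, 2 members were lower at a p under 0.05. Syt10 was the 1 member without overlap between the doses (0.113% of all genes), though its difference of 0.63 ± 0.26 was not called (adjusted p = 0.137). In iSPN limma called 0 members between the doses, where 0.173% of all genes were called (0.113% higher, 0.0603% lower), and 0 members were without overlap (0.0678% of all genes). At an unadjusted p under 0.05 there were 4, 1 higher and 3 lower, and with run as a block 0 were called after adjustment. No run held both doses in iSPN, so dose and run cannot be told apart directly in this comparison.

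High-dose arrays were set against mock arrays to read how far a member stood from the unlesioned level. In dSPN 29 members differed, 14 higher and 15 lower, against 43.4% of all genes (18.4% higher, 25% lower), and 14 did not overlap, against 11.1%. Syt6, which the lesion lowered, stood 0.89 ± 0.14 above mock (adjusted p = 1.76e-07), and Syt10 2.03 ± 0.27 above it (adjusted p = 2.4e-09). Sv2c stood 1.00 ± 0.14 above mock without overlap (adjusted p = 7.9e-09), and Syt16 at -1.06 ± 0.12 and Sv2b at -1.23 ± 0.12 stood below it (adjusted p = 2.55e-11 and 1.83e-13). In iSPN 19 differed, 10 higher and 9 lower, against 18.7% of all genes (10.4% higher, 8.27% lower), and 3 did not overlap, against 1.75%. Rab3c and Syt10 stood 0.67 ± 0.074 and 1.26 ± 0.29 above mock (adjusted p = 7.45e-11 and 0.00106), and Syt2 and Syt9 at -1.53 ± 0.17 and -1.31 ± 0.26 below it (adjusted p = 1.31e-10 and 0.000128). Syt6 differed from mock there by 0.28 ± 0.15 and was not called (adjusted p = 0.202). With run as a block 2 of the 19 were called, and Syt10 (adjusted p = 0.0698) and Syt9 (adjusted p = 0.206) were not among them.

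In mock arrays, with the dopamine input intact, 21 members differed between the lines, 16 higher and 5 lower in dSPN, against 22.5% of all genes (11.6% higher, 10.9% lower). Of 16 synaptotagmins 8 were higher in dSPN, led by Syt10 at 0.98 ± 0.28, Syt9 at 0.86 ± 0.25 and Syt12 at 0.75 ± 0.19 (adjusted p = 0.00637, 0.00692 and 0.00239). Rab3b ran from 9.68 to 10.21 (median 10.00) in dSPN and from 8.48 to 9.75 (median 9.02) in iSPN, a difference of 0.82 ± 0.12 (adjusted p = 4.56e-07). Syn1 ran from 10.34 to 10.63 (median 10.54) and from 9.39 to 10.35 (median 9.80), a difference of 0.70 ± 0.084 (adjusted p = 7.66e-10). For both, 1 or more iSPN arrays reached the lowest dSPN array. Rims1 and Sv2a were also higher in dSPN, by 0.64 and 0.60 (adjusted p = 3.13e-05 and 0.00018), and Rab3a and Syt1 by 0.28 and 0.27 (adjusted p = 0.00418 and 0.0059).

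Lower in dSPN were Rab31 at -1.48 ± 0.22, Vamp3 (cellubrevin, a VAMP of non-neuronal and recycling membranes) at -0.71 ± 0.15, Stx16 at -0.42 ± 0.10, Snap47 at -0.23 ± 0.066 and Cplx1 at -0.14 ± 0.04 (adjusted p = 1.82e-07, 0.000185, 0.00105, 0.0059 and 0.00746). Rab31 was the 1 member whose groups did not overlap, where 2.28% of all genes did not. Of 12 oligodendrocyte markers 9 were also lower in dSPN mock arrays, and of 13 astrocyte markers 3. With these markers as covariates, Vamp3, Snap47, Syt10, Syt12 and Syt1 were not called (adjusted p = 0.303, 0.0566, 0.237, 0.226 and 0.0682), Rab31 was (0.00327), and 12 members in all were. Since each run lies within a line, run and line cannot be told apart here. Probe sets disagreed for 2 genes: for Cplx1, 2 probe sets were lower in dSPN and 1 higher, and for Rab3c, 1 was lower and 1 higher, so the direction of Cplx1 between lines depends on the probe set.

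Many oligodendrocyte, astrocyte and iSPN marker transcripts were lower with levodopa in the dSPN arrays. Microglial markers as a list were not, with a mean log2 level per gene of 5.04 in lesioned saline, 5.07 at the low dose and 5.19 at the high dose. Of all genes, 25.5% were lower in dSPN at the high dose and 19.0% at the low dose. Of 12 oligodendrocyte markers tested, 11 were lower at the high dose (median -1.29) and 10 at the low dose (median -1.17), and of 13 astrocyte markers tested, 7 and 5 were lower. The summed log2 level of the 12 oligodendrocyte markers ran from 82.3 to 98.4 in lesioned saline dSPN, 68.2 to 83.4 at the low dose and 67.3 to 81.97 at the high dose, and that of 14 astrocyte markers from 88.4 to 96.4, 78.5 to 90.0 and 77.7 to 91.4. No marker has a zero on this scale, and 1 astrocyte marker lay below the limit for dim genes. With the means of the oligodendrocyte and astrocyte lists as covariates, 25 members were called at the high dose, 22 of them among the 31. Syt10, Rab3ip, Syt6, Rims4, Stx4a, Syt4, Rab3c and Sv2b then changed by 1.50, 1.73, 1.46, 1.59, 1.28, 0.96, 0.78 and -1.16. Of 8 tested iSPN markers, 6 were lower and 1 higher in dSPN at the high dose (median -0.75), and 5 were lower at the low dose (median -0.76). Among them Drd2 changed by -0.72 at the high dose (adjusted p = 0.000268), and Penk, which encodes enkephalin, by 0.48 (adjusted p = 3.36e-10). Their summed log2 level ran from 53.8 to 58.4 in lesioned saline dSPN, 47.9 to 52.4 at the low dose and 47.7 to 56.01 at the high dose, so the low-dose arrays did not overlap the lesioned ones and the high-dose arrays did. The part of the iSPN markers in the dSPN results was not tested. In iSPN no oligodendrocyte or astrocyte marker was called for the lesion or either dose. For the lesion in dSPN, 1 of 13 astrocyte and 1 of 9 microglial markers were higher, and 4 of 13 dSPN markers were lower with the lesion in iSPN. The part of these markers in the lesion results was not tested.

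Genes that work with the members were read from 4 further lists. Of 39 tested partners of the release machinery, such as Munc18 relatives and active zone proteins, 8 were higher and 10 lower at the high dose in dSPN, close to the 45.6% of all genes called there, with Stxbp4 at -1.20, Doc2g at 1.07 and Dmxl2 at -1.01 (adjusted p = 0.0001, 6.85e-06 and 2.36e-10). At the low dose 8 were higher and 6 lower, again close to the share of all genes (34.1%), among them Bsn, the active zone scaffold Bassoon, at -0.65 (adjusted p = 9.72e-06). With the lesion in iSPN, where 6.20% of all genes were called, 4 of 39 were higher, among them the Rab3 effector Rph3a at 0.52 and Napb, a SNAP that recycles SNAREs, at 0.36 (adjusted p = 0.0279 and 5.23e-05). In iSPN at the high dose, where 9.86% of all genes were called, 3 of 39 were higher and 2 lower, among them Stxbp6 at -1.20 and Pclo, the scaffold Piccolo, at -0.79 (adjusted p = 0.000171 and 0.0376).

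The list of dense-core vesicle cargo and factors held the widest changes. Of 13 tested, 5 were higher and 3 lower at the high dose in dSPN (45.6% of all genes called, 20.1% higher and 25.5% lower), led by the prohormone convertase Pcsk1 at 4.31 and the granin-like Vgf and Scg2 at 3.15 and 2.56 (adjusted p = 5.84e-20, 1.59e-26 and 1.65e-29). Vgf and Scg2 changed in the opposite direction in iSPN at the same dose, -1.05 and -0.96 (adjusted p = 0.000214 and 2.88e-06). With the lesion they were higher in iSPN, 1.65 and 1.90 (adjusted p = 2.38e-09 and 2.11e-17), and lower in dSPN, -2.14 and -0.75 (adjusted p = 3.74e-15 and 3.39e-05). Among 22 tested genes of vesicle endocytosis, 7 were higher and 7 lower at the high dose in dSPN, against the same background of 45.6%, with Dnm2 at -1.43, Sh3gl1 at 1.01 and the clathrin heavy chain Cltc at 0.89 (adjusted p = 1.35e-06, 1.84e-08 and 3.74e-15). Among 17 tested vesicle membrane proteins, 4 were higher and 1 lower there, and Syp, synaptophysin, was the 1 called with the lesion in iSPN, at 0.35 (adjusted p = 4.05e-05).

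Most members were read by several probe sets. Of 152 member probe sets above the limit for dim values, 36 were higher and 33 lower at the high dose in dSPN, where 44.9% of all probe sets were called, and no gene had probe sets called both ways in any lesion or dose comparison. Both probe sets of Rab3ip, of Rims4, of Syt4 and of Sv2b and all 5 of Rab3c were called the same way. For Syt1, 2 of 3 probe sets fell by about 0.50 on the log2 scale and the third changed by -0.11 without a call. For Rab30 the second probe set changed by -0.07, also without a call. Syt10, Syt14, Stx4a and Sv2c rested on 1 tested probe set each. So did Syt3, Syt5, Syt9, Syt12, Syt16, Rab3b, Rab33a, Stx7, Stx16, Syn1, Sv2a and Unc13a.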

How the data were processed

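Expression was measured on 77 arrays, 1 mouse each, mapped to 8 groups by the line, surgery and drug in their labels. The table the authors deposited holds log2 values, 1 per probe set and array, made with RMA in the affy package (versions not given), per the submitters' processing notes. RMA normalizes across arrays, which can hide shifts shared by most genes, and low signals are compressed, so fold differences of dim genes are understated. Precision is limited by how many arrays a group holds.

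Of 45101 probe sets, 34958 carried a single symbol, 932 several and 9211 none, and the last 2 kinds were left out. A gene's brightest probe set on average stood for it, and it was tested if that average exceeded the 40th percentile over probe sets (3.55). The arrays of both lines entered 1 limma 3.58.1 fit (R 4.3.3, lmFit, then eBayes; 69 residual degrees of freedom, no run term), in 14 comparisons with Benjamini-Hochberg adjustment over 13271 genes and two-sided tests. The procedure was tested on simulated data for the lesion in dSPN, the high dose in dSPN and the low dose in iSPN. It recovered 10.3%, 13.2% and 2.94% of changes of 0.3 on the log2 scale. Of changes of 0.6 it recovered 53%, 66.7% and 43.9%, and of changes of 1 it recovered 90.9%, 90.9% and 83.3%. Most changes of 0.3 were thus not called in simulated data where few of 13271 genes changed (68, 66 and 66 for the changes of 0.3, 0.6 and 1). At the high dose in dSPN 45.6% of all genes were called, and the adjustment is less strict there. A change as small as 0.10 (Cplx1) was called in that comparison, so the recovered shares do not describe it. The consensus correlation within runs was -0.021. Named members are the 10 highest and 10 lowest called in each of the 6 lesion and dose comparisons, 6 and 6 in the others, 12 core proteins in every comparison, and up to 3 called genes per partner list. The members, lists and rule were chosen with earlier results of these data known. Alternatives were run as a block (fixed or random) or alone, glial covariates, each line alone, array weights, eBayes trend and robust, other filters, other scaling, the mean of a gene's probe sets, and leaving out 2 arrays that stood apart.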

Additional observations from a re-analysis of the deposited data

Results flagged for a closer look

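Among the 43 members named in some comparison, the groups of 4 to 10 arrays gave 215 checks for an array far from the others of its group, and 17 were met, where chance meets about 1 in 20. In lesioned saline iSPN, the lowest array of Rab3ip (8.96, nearest 9.78), Syt16 (7.25, nearest 7.91) and Cplx1 (11.83, nearest 12.02) was the same mouse, replicate 4. In that group, replicate 6 was lowest for Cplx2 (11.76, nearest 11.94) and Unc13a (6.68, nearest 7.25), and replicate 7 for Sv2b (9.21, nearest 10.35). In high-dose iSPN, replicate 6 was highest for Rims4 (7.70, nearest 6.58) and Rab3ip (10.44, nearest 10.15), and replicate 2 for Snap91 (10.44, nearest 10.28). In low-dose iSPN, replicate 3 was lowest for Syt6 (7.86, nearest 8.84) and Rab3ip (9.38, nearest 9.93), and replicate 8 for Vamp3 (8.80, nearest 9.78). In mock iSPN, Syt10 stood at 8.13 in replicate 1, nearest 6.23, and Syt16 at 7.62 in replicate 9, nearest 7.97. In mock dSPN, Sv2b reached 10.77 in replicate 10 (nearest 10.46), Syt12 reached 8.43 in replicate 9 (nearest 7.88), and Syt2 was 7.84 in replicate 3 (nearest 8.12).

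The change in dSPN minus that in iSPN differed from 0 by the interaction test in limma, at an adjusted p under 0.05, for the following named members. For the lesion the differences were -1.95 for Syt10, -1.89 for Syt6, -1.03 for Syt12, -0.87 for Snap29, -0.67 for Unc13a and -0.61 for Rims1. For the high dose they were 2.72 for Syt10, 2.50 for Syt6, 2.20 for Rims4, 1.76 for Rab3ip, 1.05 for Syt4, 0.98 for Stx4a and 0.17 for Vamp2, and -1.04 for Rab30, -0.90 for Syt3, -0.88 for Sv2b, -0.61 for Rims2, -0.31 for Syt1, -0.30 for Syt11 and -0.16 for Cplx1. For the low dose they were 2.69 for Syt10, 1.81 for Syt6, 1.79 for Rims4, 1.48 for Rab3ip, 0.98 for Stx4a and 0.79 for Syt4, and -1.09 for Rab31 (adjusted p = 0.664 with glial covariates), -1.0 for Unc13c, -0.86 for Rab30, -0.49 for Vamp5 and -0.18 for Cplx1. With run as a fixed block, these were no longer called: Syt12, Snap29, Unc13a and Rims1 for the lesion, Syt3 (adjusted p = 0.119), Rims2 (0.304), Syt1 (0.161), Syt11 (0.0703), Cplx1 (0.37) and Vamp2 (0.0912) for the high dose, and Rab31 (0.224), Unc13c (0.0658), Vamp5 (0.555) and Cplx1 (0.146) for the low dose.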

How the results depend on the processing

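The number of called members kept within 1.5 times its value in most alternatives. With run as a fixed block it fell to 3 for the lesion in iSPN, 2 and 4 for the high and low dose in iSPN, 14 for the low dose in dSPN, 1 for high against low dose in dSPN, 2 for high dose against mock in iSPN, and 2, 13 and 8 for the interactions of lesion, high and low dose. Within run 1 it was 0 for the lesion in dSPN, within run 6 it was 0 for the high dose in iSPN and within run 7 it was 0 for the low dose in iSPN. With each line fitted alone, it was 5 for the lesion in dSPN, 4 for the lesion in iSPN, 3 for the low dose in iSPN and 12 for high dose against mock in iSPN. For the lesion in dSPN it was 5 with array weights, 5 with the filter at the 60th percentile, 5 with run as a random block and 6 with the mean of all probe sets. With glial covariates it was 12 between lines in mock arrays. The cause was not tested, beyond the fewer arrays within a run or line. Of the named values, 1 changed direction: Cplx1 between lines in mock arrays was 0.0501 with the mean of its probe sets (adjusted p = 0.561). Of the others, 56 lost their call with the fixed block and 29 with glial covariates. No paired analysis was possible because replicate numbers follow accession order and pair no mice. Run and line cannot be told apart, and weak signals near the limit for dim genes bound what these arrays can show.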
